A study of Mus musculus with 6 samples.

Results

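The genes described here are 39 genes of the interferon response, of antigen presentation by class I molecules and of cytosolic nucleic acid sensing, listed by symbol and found among the 55335 genes of the deposited count table through their Ensembl identifiers. All 39 were found, and 38 had enough counts to be tested. The libraries come from mouse embryonic fibroblasts (MEF), cultured fibroblasts of WT genotype, either as untreated parental cells (Ctrl) or as cells that had been seeded on a transwell membrane with 3 μm pores and were collected below it 15 h later (Confine). Both groups were grown in Dulbecco's modified Eagle medium with fetal bovine serum, penicillin and streptomycin, and polyadenylated RNA was sequenced. The table holds 3 columns per group, but Confine replicates 1 and 2 hold identical values throughout. They entered once, as Confine replicate 2 (deposited again as replicate 1), which leaves 3 Ctrl and 2 Confine libraries. Nothing states whether the libraries of a group came from separate cultures, so p-values measure the spread between these libraries, which may be technical. Passage through the pores, culture on the membrane and selection of the cells able to cross cannot be told apart in this design. The paper's transwell method, described for wider pores, seeded cells in serum-free medium above medium with serum. Whether this also held for the sequenced cells is not stated.

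In the textbook pathway, the sensor cGAS binds DNA in the cytosol and signals through STING and the kinase TBK1 to the transcription factor IRF3, while RIG-I and MDA5 sense RNA. The interferons made in response bind the receptor IFNAR1/IFNAR2 and activate a transcription factor complex, with STAT2 and IRF9 among its parts, that binds the interferon-stimulated response element (ISRE) in the promoters of interferon-stimulated genes. Class I molecules, made of a heavy chain and beta-2-microglobulin, show peptides from the proteasome at the cell surface, and interferons and other cytokines raise their genes. Squeezing through narrow constrictions is known to rupture the nuclear envelope of some cells and to bring DNA into contact with cGAS, which makes this pathway a question for cells that have crossed pores.

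Total counts ran from 22287210 in Ctrl replicate 3 to 32537550 in Confine replicate 2, and mitochondrial transcripts took from 0.689% to 0.806% of each library. The fibroblast markers Col1a1 and Vim were above 2000 normalized CPM (counts scaled to the library size and by TMM factors) in every library, whereas Thy1 and Lum had at most 3 counts in any library. Of 13 fibroblast markers 10 could be tested. Of these 5 rose, Col1a1 (0.66), Vim (0.97), Col3a1 (2.21), Fn1 (1.04) and Pdgfra (0.84), and Postn fell (-0.96). Over all genes tested, 12.8% rose and 10.2% fell. Of 17 leukocyte markers, 10 had at most 3 counts in every library, among them Ptprc, the pan-leukocyte antigen CD45, and the T cell marker Cd3e. Of the 6 that could be tested, Cd68 (log2 fold change 2.67), Csf1r and Cd14 were higher in Confine, Lyz2 (-2.64) and Coro1a were lower, and the summed level of the list was 20.0 to 24.3 normalized CPM in Ctrl and 37.2 to 44.5 in Confine. No marker of endothelial or epithelial cells could be tested, and the summed normalized CPM of either list was at most 0.718 in any library. The part of such cells in the results below was not tested, and in bulk RNA more cells of a kind and more RNA per cell cannot be told apart.

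The module as a whole did not move in 1 direction. Of the 38 members tested, 6 had an adjusted p under 0.05 in edgeR's quasi-likelihood test, 4 higher and 2 lower in Confine, or 15.8% of the members against 23% of the 15881 genes tested (12.8% of all genes were higher and 10.2% lower). The 4 upregulated members were Psmb8, H2-K1 and B2m of class I presentation and the receptor subunit Ifnar2. The 2 downregulated members were Ifit2 and Cgas. The median log2 fold change of the members was -0.007, beside -0.0021 over all genes tested, with 19 members above 0 and 19 below it. At the additional cutoff of an absolute log2 fold change above 1.5, 0 members were called by edgeR, against 8% of all genes. With an unadjusted p under 0.05 there were 9 of the 38 members, and 0 of these exceeded that cutoff. At least 23% of all genes had such a p, since an adjusted p is never below the unadjusted one. In 12 of the 38 members the Confine libraries lay entirely above or below the Ctrl libraries, against 49.5% of all genes tested.

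**Figure D1:**
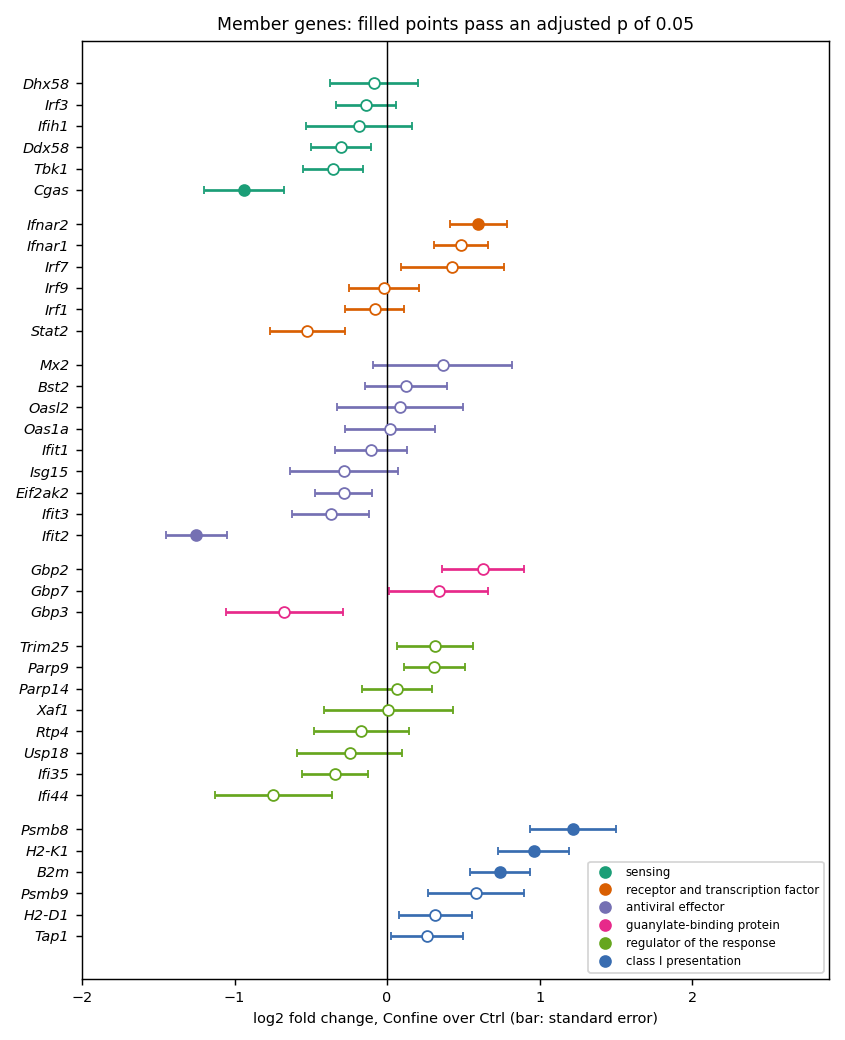
Log2 fold change of each tested member (Confine over Ctrl, with its standard error as the bar), grouped by role and coloured by role, with filled points for an adjusted p under 0.05 in edgeR's quasi-likelihood test. All 6 class I presentation genes lie to the right of 0 and all 6 sensing genes to the left, and 6 points are filled.

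Class I presentation held 3 of the 4 members that rose, or 50% of its members against 12.8% of all genes. Its 6 members, Psmb8, Psmb9, Tap1, B2m, H2-K1 and H2-D1, all had log2 fold changes above 0, with a median of 0.66. B2m on chromosome 2 from 122147686 to 122153083 (GRCm38), which encodes beta-2-microglobulin, the light chain of every class I molecule, had 1736, 2029 and 1582 normalized CPM in Ctrl replicates 1 to 3 and 3573 and 2389 in Confine replicates 2 and 3. Both Confine values exceeded every Ctrl value, although they also lay farther from each other than the Ctrl libraries did. B2m rose 1.67-fold, a log2 fold change of 0.74 (standard error 0.20, edgeR adjusted p = 0.0103). The adjusted p of B2m was 0.0579 without Ctrl replicate 3, 0.191 without Confine replicate 2 and 0.0548 when TMM was replaced by the plain library size.

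H2-K1, on chromosome 17 from 33996017 to 34000347, encodes the heavy chain K, which holds the presented peptide. It had 390, 329 and 209 normalized CPM in Ctrl and 715 and 489 in Confine, with no overlap between the groups. H2-K1 rose by 0.96 on the log2 scale (standard error 0.23, edgeR adjusted p = 0.00515), with an adjusted p of 0.141 when Confine replicate 2 was left out. The other classical heavy chain, H2-D1, on chromosome 17 from 35262730 to 35267499, had 927, 521 and 557 normalized CPM in Ctrl and 1012 and 653 in Confine. Here the groups overlapped, since Ctrl replicate 1 was above Confine replicate 3, and the log2 fold change of 0.32 (standard error 0.24) had an edgeR adjusted p of 0.385. Within each library there were 22.5, 16.2 and 13.2 H2-K1 counts per 100 B2m counts in Ctrl and 20.0 and 20.5 in Confine, so this ratio overlapped between the groups, whereas H2-D1 had 53.4, 25.7 and 35.2 counts per 100 B2m counts in Ctrl and 28.3 and 27.3 in Confine. H2-K1 and H2-D1 transcripts share stretches of up to 251 bases at 95.2% identity or more and are highly polymorphic between mouse strains, so counts may have been split between them and their relatives.

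Psmb8 and Psmb9 encode catalytic subunits of the immunoproteasome, which replace the constitutive subunits encoded by Psmb5 and Psmb6 and change the peptides made for class I molecules. Psmb8 on chromosome 17 from 34197721 to 34201454 had 8.43, 8.73 and 3.74 normalized CPM in Ctrl and 17.7 and 14.8 in Confine, again without overlap. Its log2 fold change of 1.22 (standard error 0.28, edgeR adjusted p = 0.0036) was the largest rise among the members, and the adjusted p was 0.0654 without Confine replicate 2. Psmb9 had 3.11, 4.04 and 1.87 normalized CPM in Ctrl and 4.53 and 4.53 in Confine, with a log2 fold change of 0.58 (standard error 0.32, edgeR adjusted p = 0.205). Its exons overlap those of Tap1 on the opposite strand over 212 bases, so reads there depend on whether counting used the strand, which is not given in the sources used here. Tap1, a subunit of the peptide transporter of the endoplasmic reticulum, had 15.4, 12.7 and 8.51 normalized CPM in Ctrl and 14.1 and 15.3 in Confine, and the groups overlapped.

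Set against the constitutive subunit in the same library, where the scaling between libraries plays no part, there were 2.98, 2.59 and 1.26 Psmb8 counts per 100 Psmb5 counts in Ctrl and 7.11 and 6.32 in Confine. Psmb9 had 0.502, 0.704 and 0.280 counts per 100 Psmb6 counts in Ctrl and 0.888 and 0.837 in Confine. Psmb10, the third inducible subunit, had 66.2, 71.6 and 60.0 counts per 100 Psmb7 counts in Ctrl and 105 and 83.4 in Confine. In all 3 ratios the Confine libraries lay above the Ctrl libraries, by 1.65, 0.90 and 0.51 on the log2 scale, and no test was applied. Of all genes tested, 49.5% had levels without overlap between these groups. Psmb5, Psmb6 and Psmb7 each lay lower in Confine without overlap, so each ratio also holds the fall of its denominator. The constitutive subunits themselves did not pass the test (log2 fold changes of -0.34 for Psmb5, -0.24 for Psmb6 and -0.41 for Psmb7), and neither did Psmb10 (0.08), so of the 6 subunits in these ratios Psmb8 alone passed.

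The promoters of B2m, H2-K1 and H2-D1 are shown because the ISRE is the element bound by the interferon-activated complex described above. Each line gives the 250 bases before the RefSeq start of the gene (GRCm38.p6), read along the strand of the gene. In B2m (chr2:122147437-122147686, plus strand), capitals mark a match to the ISRE core, searched on both strands as GAAA followed after any 2 bases by GAAA. H2-K1 (chr17:34000348-34000597, minus strand, the first of 2 RefSeq starts) and H2-D1 (chr17:35262844-35263093, plus strand) hold no match to these exact letters. In this pair capitals mark the longest run of letters that both share, 47 bases long. Looser forms of the element were not searched, so an ISRE is not excluded. In both promoters tttcacttct, which matches the core read on the other strand in part, stands shortly after the capitals.
B2m: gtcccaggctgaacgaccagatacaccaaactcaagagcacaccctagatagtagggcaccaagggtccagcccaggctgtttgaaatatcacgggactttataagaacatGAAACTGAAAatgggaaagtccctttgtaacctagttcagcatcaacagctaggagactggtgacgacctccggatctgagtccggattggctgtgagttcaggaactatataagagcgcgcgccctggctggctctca
H2-K1: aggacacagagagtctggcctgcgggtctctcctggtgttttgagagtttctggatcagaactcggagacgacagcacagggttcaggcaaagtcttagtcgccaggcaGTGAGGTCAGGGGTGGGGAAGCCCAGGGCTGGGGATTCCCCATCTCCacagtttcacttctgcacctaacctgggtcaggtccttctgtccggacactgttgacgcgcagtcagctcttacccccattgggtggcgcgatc
H2-D1: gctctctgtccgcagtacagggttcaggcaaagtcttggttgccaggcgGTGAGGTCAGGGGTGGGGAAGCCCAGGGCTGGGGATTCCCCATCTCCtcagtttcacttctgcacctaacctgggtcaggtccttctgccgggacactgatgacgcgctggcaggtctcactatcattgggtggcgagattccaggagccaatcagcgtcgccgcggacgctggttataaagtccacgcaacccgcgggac

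Of the other class I genes in the wider pathway list, 17 of 22 could be tested, and 3 rose and 0 fell by edgeR's adjusted p, or 17.6% higher against 12.8% of all genes. With an unadjusted p under 0.05 there were 6 of these 17, where at least 23% of all genes had such a p. The other 3 went both ways, with log2 fold changes of 0.73 for H2-T24, -0.70 for Tapbpl and -0.56 for Erap1, a peptidase that trims class I peptides. H2-T23, the nonclassical heavy chain Qa-1, had 1.42, 1.32 and 0.851 normalized CPM in Ctrl and 6.99 and 8.62 in Confine, a log2 fold change of 2.69 (standard error 0.30, edgeR adjusted p = 2.85e-06). H2-T23 and H2-K1 transcripts share a stretch of 193 bases at 95.3% identity, while mean counts over the libraries were 104.0 for H2-T23 and 11676.0 for H2-K1. H2-M3, a nonclassical heavy chain that presents formylated peptides, had 13.9, 12.4 and 14.9 normalized CPM in Ctrl and 32.0 and 28.9 in Confine (log2 fold change 1.15, edgeR adjusted p = 1.75e-04). Tapbp, the tapasin that loads peptides on class I molecules, had a log2 fold change of 0.60 (edgeR adjusted p = 0.0333), and Nlrc5, the transactivator of class I genes, of 0.30 (edgeR adjusted p = 0.327). Of 8 class II genes listed, 4 could be tested, 0 rose and 2 fell by edgeR's adjusted p (50% lower against 10.2% of all genes), with log2 fold changes of -1.64 for Cd74, the invariant chain, and -0.79 for H2-DMa, while the class II chains H2-Aa, H2-Ab1 and H2-Eb1 had at most 3 counts in any library.

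Among the 6 sensing members, 1 fell (16.7% against 10.2% of all genes) and the other 5 did not pass. All 6 log2 fold changes were below 0 (median -0.24). Cgas, on chromosome 9 from 78430526 to 78443237, had 7.25, 7.97 and 5.83 normalized CPM in Ctrl and 3.92 and 3.41 in Confine. Both Confine libraries lay below every Ctrl library, with a log2 fold change of -0.94 (standard error 0.26, edgeR adjusted p = 0.0143). In the replicate block, the replicate number enters the fit. There the edgeR adjusted p of Cgas was 0.0608 with the identical columns as replicate 2 and 0.015 as replicate 1. The log2 fold change of Cgas was -1.04 without Confine replicate 2 and -0.84 without Confine replicate 3. Cgas did not pass in either of these fits, in which a lone Confine library remains. Ddx58, which encodes RIG-I, had 23.4, 20.7 and 20.0 normalized CPM in Ctrl and 19.2 and 15.4 in Confine, and Tbk1 had 25.3, 20.0 and 25.7 in Ctrl and 19.5 and 17.4 in Confine. Neither passed the test, although their groups did not overlap either. Ifih1, the RNA sensor MDA5, had 2.80, 3.82 and 1.87 normalized CPM in Ctrl and 2.87 and 2.1 in Confine. Dhx58, which encodes the related protein LGP2, had 8.43, 7.11 and 5.49 in Ctrl and 8.68 and 4.49 in Confine, and Irf3 had 70.2, 57.7 and 74.3 in Ctrl and 69.9 and 52.5 in Confine. These 3 genes had overlapping groups and log2 fold changes from -0.18 to -0.09. Irf3 was the most abundant sensing member per length, at 19.6 normalized CPM per kb of exon in Ctrl, against 1.70 for Cgas and 0.346 for Ifih1.

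Beyond the members, the nucleic acid sensing list held 24 tested genes, of which 6 rose and 3 fell, or 25% and 12.5% against 12.8% and 10.2% of all genes. Sting1, the adaptor that relays the cGAS signal, had 51.5, 26.6 and 48.4 normalized CPM in Ctrl and 49.4 and 40.9 in Confine (log2 fold change 0.10, edgeR adjusted p = 0.815). The genes that rose with a log2 fold change above 1 were Zbp1, a sensor of Z-form nucleic acids (1.93), Enpp1, which hydrolyses the second messenger made by cGAS (1.64), the HIN-200 family genes Ifi203 (1.62) and Ifi204 (1.48), and Ikbke, a kinase related to TBK1 (1.20). Ifi204 had 41.6, 42.8 and 39 normalized CPM in Ctrl and 116 and 114 in Confine, while Zbp1 rested on Confine replicate 2, with 4.66, 5.52 and 1.06 in Ctrl, 22.6 in Confine replicate 2 and 6.19 in Confine replicate 3. The log2 fold change of Zbp1 was 0.72 (edgeR adjusted p = 0.446) without Confine replicate 2, and DESeq2 on all libraries gave 1.93 with an adjusted p of 0.172. The other gene of this list that rose was Lrrc8a (0.77, edgeR adjusted p = 0.00671). The 3 genes that fell were the ribonuclease H2 subunits Rnaseh2a (-0.81) and Rnaseh2b (-1.07), and Samhd1, which breaks down deoxynucleotides (-0.55).

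Of the 2 chains of the type I interferon receptor, 1 rose and the other did not pass the test. Ifnar2, on chromosome 16 from 91372783 to 91405589, had 19.4, 21.4 and 17.2 normalized CPM in Ctrl and 30.1 and 28.4 in Confine, with a log2 fold change of 0.60 (standard error 0.19, edgeR adjusted p = 0.0267). This call was the least stable of the 6. The edgeR adjusted p of Ifnar2 was 0.0867 without Ctrl replicate 1, 0.0971 without Ctrl replicate 3 and 0.147 with library size alone. With the replicate block it was 0.124 with the identical columns as replicate 2 and 0.00426 as replicate 1. The log2 fold change was 0.56 without Confine replicate 2 and 0.64 without Confine replicate 3, and Ifnar2 passed in neither fit. Ifnar1, the other chain, had 45.3, 51.0 and 48.5 normalized CPM in Ctrl and 64.3 and 70.7 in Confine, where the groups also did not overlap, but its log2 fold change of 0.48 (standard error 0.18) had an edgeR adjusted p of 0.0566. Of the chains of the other interferon receptors in the wider list, Ifngr2, part of the receptor for interferon-gamma, rose. It had 50.2, 77.8 and 52.7 normalized CPM in Ctrl and 89.4 and 106 in Confine, with no overlap and a log2 fold change of 0.70 (standard error 0.21, edgeR adjusted p = 0.0189). The edgeR adjusted p of Ifngr2 was 0.0938 without Ctrl replicate 1, 0.0591 without Ctrl replicate 3 and 0.0937 with library size alone. With the replicate block it was 0.119 with the identical columns as replicate 2 and 1.44e-04 as replicate 1. The log2 fold change was 0.82 without Confine replicate 2 and 0.57 without Confine replicate 3, and Ifngr2 passed in neither fit. Ifngr1 (0.23) and Il10rb (0.35) did not pass, and Ifnlr1 had 0 counts in every library. Of the kinases bound to the type I receptor, Tyk2 rose, with 17.5, 14.8 and 20.2 normalized CPM in Ctrl and 38.4 and 40.3 in Confine (log2 fold change 1.17, edgeR adjusted p = 1.60e-04), and Jak1 had a log2 fold change of 0.27 (edgeR adjusted p = 0.287). Socs3, an inhibitor of cytokine signalling, rose by 1.24 on the log2 scale (edgeR adjusted p = 1.09e-04).

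None of the 4 members that are transcription factors acting below the receptor passed edgeR's test, against 23% of all genes. Of these 4, 1, Stat2, had an unadjusted p under 0.05. Stat2 had 20.3, 27.4 and 17.1 normalized CPM in Ctrl and 18.6 and 11.4 in Confine, and Irf9 had 70.6, 70.8 and 47.3 in Ctrl and 77.6 and 46.3 in Confine. In both genes the groups overlapped, with log2 fold changes of -0.52 for Stat2 (edgeR adjusted p = 0.137) and -0.02 for Irf9 (0.963). Irf1 and Irf7 are factors that are themselves induced by interferon. Irf1 had 36.8, 43.7 and 30.9 normalized CPM in Ctrl and 37.8 and 32.3 in Confine, and Irf7 had 13.0, 9.83 and 4.72 in Ctrl and 16.7 and 7.98 in Confine. Both genes had overlapping groups, with log2 fold changes of -0.08 for Irf1 and 0.43 for Irf7, and 45 bases of Irf7 exons overlap Phrf1 on the opposite strand. The interferons were nearly undetected. Of 11 interferon genes listed, among them Ifnb1 and Ifng, 7 had 0 counts in every library and 1, Ifnk, could be tested (log2 fold change -0.02), and the remaining genes had at most 4 counts in any library. A count of 0 allows up to 0.101 to 0.128 normalized CPM (3 counts), and intervals and limits of this kind cover counting error only.

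The antiviral effectors, the genes that interferon classically induces, showed 1 fall and no rise among 9 tested members by edgeR's adjusted p. That is 11.1% lower against 10.2% of all genes, and 0% higher against 12.8%. Ifit2, on chromosome 19 from 34550694 to 34576419, encodes an RNA-binding inhibitor of translation. It had 22.4, 24.2 and 21.9 normalized CPM in Ctrl and 9.56 and 9.61 in Confine. The libraries of each group lay close together and the groups far apart. The log2 fold change of Ifit2 was -1.25 (standard error 0.20, edgeR adjusted p = 1.36e-04), the largest fall among the members. Its adjusted p stayed under 0.05 in every fit made, apart from glmTreat, edgeR's test against the fold change cutoff. By glmTreat 0 members were called lower. Of its neighbours in the same gene cluster, Ifit1 and Ifit3 did not pass the test and Ifit3b fell. Ifit1 had 15.9, 16.1 and 10.7 normalized CPM in Ctrl and 15.6 and 10.8 in Confine (log2 fold change -0.10, edgeR adjusted p = 0.803). Ifit3 had 14.0, 14.8 and 8.38 in Ctrl and 10.7 and 8.54 in Confine (log2 fold change -0.37, edgeR adjusted p = 0.328), and its near copy Ifit3b, which shares 1700 bases of transcript at 97.8% identity, had a log2 fold change of -1.10 (edgeR adjusted p = 0.029), so counts of this pair are uncertain. The Ifit3b call was lost with limma-voom (adjusted p = 0.0598) and, in edgeR, without Ctrl replicate 1 (0.129) or Ctrl replicate 2 (0.0658). With the replicate block the edgeR adjusted p was 0.185 with the identical columns as replicate 2 and 0.0351 as replicate 1. The log2 fold change of Ifit3b was -1.20 without Confine replicate 2 and -1.01 without Confine replicate 3, and Ifit3b passed in neither fit.

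The promoters of Ifit1, Ifit2 and Isg15 are shown in the same way. In Ifit1 (chr19:34640639-34640888, plus strand) and Isg15 (chr4:156200819-156201068, minus strand) capitals mark matches to the ISRE core, 2 in Ifit1 and 3 overlapping ones in Isg15. In Ifit2 (chr19:34550444-34550693, plus strand, the first of 2 RefSeq starts) no ISRE core was found in this window, and capitals mark a match to the gamma-activated sequence (GAS, searched as TTCNNNGAA), an element of interferon-gamma signalling.
Ifit1: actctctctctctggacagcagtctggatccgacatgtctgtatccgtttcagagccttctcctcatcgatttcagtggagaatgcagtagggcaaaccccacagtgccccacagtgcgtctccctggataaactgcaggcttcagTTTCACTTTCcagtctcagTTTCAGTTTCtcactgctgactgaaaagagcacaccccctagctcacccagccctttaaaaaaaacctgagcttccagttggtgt
Isg15: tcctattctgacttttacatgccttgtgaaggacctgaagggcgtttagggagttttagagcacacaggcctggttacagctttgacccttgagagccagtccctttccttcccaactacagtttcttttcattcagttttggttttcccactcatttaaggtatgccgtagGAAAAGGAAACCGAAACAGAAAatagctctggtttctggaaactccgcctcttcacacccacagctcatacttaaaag
Ifit2: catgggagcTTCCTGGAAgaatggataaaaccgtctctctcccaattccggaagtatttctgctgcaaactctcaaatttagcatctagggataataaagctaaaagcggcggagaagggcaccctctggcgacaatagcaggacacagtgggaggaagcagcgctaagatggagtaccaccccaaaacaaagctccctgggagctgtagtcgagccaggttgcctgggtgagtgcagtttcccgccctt

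RefSeq promoters were matched for 33 of the 39 members, with 38 starts in all. The ISRE core was found before 11 of these 38 starts (28.9%), against 2.98% of all 32851 promoters of the same length, and the GAS letters before 8 (21.1%) against 7.02%. By role, 6 of 9 antiviral effectors and 3 of 3 guanylate-binding proteins with a matched promoter held an ISRE core, as did Stat2 and B2m, and 0 of 5 sensing members. Of the 6 members that passed the test, B2m held an ISRE core, and Ifit2, Ifnar2 and Psmb8 held the GAS letters. A match is a run of letters and not a site shown to be bound, and a missing match says only that these letters are not in this window.

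The remaining tested effectors had overlapping groups, apart from Eif2ak2. Isg15, a ubiquitin-like protein, had 46.1, 54.3 and 16.7 normalized CPM in Ctrl and 42.9 and 21.3 in Confine. Bst2, or tetherin, which holds budding virus at the cell surface, had 109, 144 and 57.8 in Ctrl and 126 and 99.7 in Confine. Oas1a and Oasl2, of the oligoadenylate synthetase family, had log2 fold changes of 0.02 and 0.08, and Mx2, a dynamin-like GTPase with 14 to 61 counts per library, of 0.37. Oas1a and Oas1g share 1861 bases at 97.6% identity, and Mx2 and Mx1 share 843 bases at 95.3%. Eif2ak2, the kinase PKR, had 50.2, 48.8 and 45.4 normalized CPM in Ctrl and 44.7 and 34.3 in Confine (log2 fold change -0.28, edgeR adjusted p = 0.308). Rsad2, or viperin, had 3, 3 and 1 counts in Ctrl and 6 and 12 in Confine and was too low to be tested. Among the 3 guanylate-binding proteins, GTPases that attack the vacuoles of pathogens, 0 passed the test in edgeR, against 23% of all genes. Of these, 1, Gbp2, had an unadjusted p under 0.05. Gbp2 had 3.97, 3.89 and 4.04 normalized CPM in Ctrl and 7.37 and 4.88 in Confine, a log2 fold change of 0.63 (standard error 0.27, edgeR adjusted p = 0.101), whereas Gbp3 (-0.67) and Gbp7 (0.34) had overlapping groups.

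None of the 8 regulators of the response passed edgeR's test, against 23% of all genes, and 0 had an unadjusted p under 0.05. The lowest log2 fold change was that of Ifi44 (-0.75), with 17.5, 13.4 and 6.21 normalized CPM in Ctrl and 10.8 and 3.93 in Confine, and the highest was 0.31 for Trim25, a ubiquitin ligase that acts on RIG-I. Usp18, which removes ISG15 from proteins and restrains the receptor, had 14.9, 12.5 and 6.0 normalized CPM in Ctrl and 13.1 and 5.64 in Confine. Parp9, which works in a complex with Dtx3l, had 28.0, 30.3 and 25.4 normalized CPM in Ctrl and 41.3 and 27.8 in Confine, and its exons overlap those of Dtx3l on the opposite strand over 458 bases. Parp14, Ifi35, Rtp4 and Xaf1 had log2 fold changes from -0.34 to 0.07, with overlap between the groups in each.

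**Figure D2:**
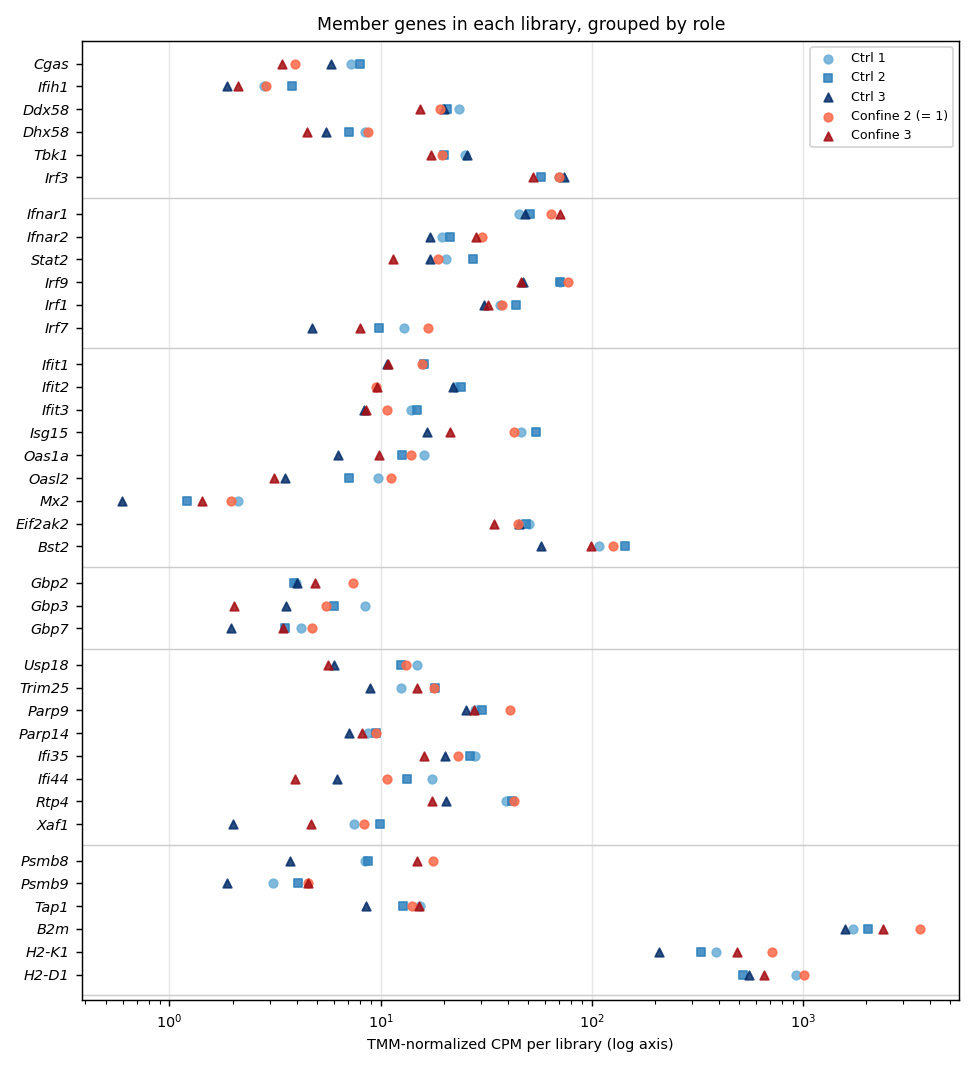
TMM-normalized CPM of the 38 tested members in each library on a log axis, grouped by role (from the top: sensing, receptor and transcription factors, antiviral effectors, guanylate-binding proteins, regulators, class I presentation), with Ctrl in blue and Confine in red. Triangles (replicates 3 of both groups) sit at the low end of their own group in most rows, and the Ifit2 row separates blue from red points.

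The members also shared a pattern within each group. In 33 of the 38 tested members Ctrl replicate 3 was the lowest Ctrl library, against 32.7% of all genes tested, and in 35 Confine replicate 3 was below Confine replicate 2, against 48.7% of all genes. Both held in 31 members, or 81.6%, against 15.3% of all genes. On log2 of normalized CPM plus 0.5, the median member was 0.62 lower in Ctrl replicate 3 than in the mean of the other Ctrl libraries (median of -0.62 against 0.005 over all genes) and 0.45 lower in Confine replicate 3 than in Confine replicate 2 (median of -0.45 against 0.011). The median range over the 3 Ctrl libraries was 0.81 for the members and 0.43 for all genes on this scale. The pattern was fullest in the regulators, where 8 of 8 showed both, and in the antiviral effectors, where 8 of 9 did. It also held in 4 of 6 sensing and 4 of 6 class I presentation members. The latter count includes Psmb9, whose Confine libraries were level at 4.53 normalized CPM. Xaf1 had 7.5, 9.98 and 2.00 normalized CPM in Ctrl and 8.38 and 4.69 in Confine, and Rtp4 had 39.4, 42.1 and 20.3 in Ctrl and 42.8 and 17.6 in Confine. The 7 members without it were Ifit2, whose Confine libraries were level, Ifnar1, Irf3, Tbk1, Gbp2, Tap1 and H2-D1. In the 52 other interferon-stimulated genes tested, 53.8% showed both.

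The 2 libraries with the low levels were also those with the fewest total counts in their group, 22287210 in Ctrl and 27290138 in Confine, and with the lower mitochondrial share, 0.689% in Ctrl replicate 3 and 0.692% in Confine replicate 3. The part of depth and RNA quality in this pattern was not tested. Standard errors of the members' log2 fold changes ran from 0.18 for Ifnar1 to 0.46 for Mx2.

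**Figure D3:**
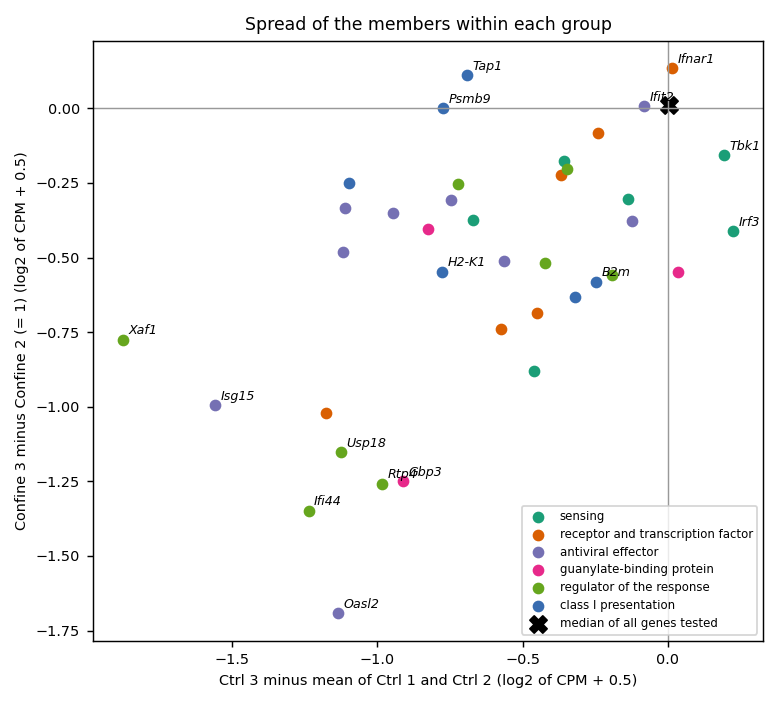
For each tested member, the difference of Ctrl replicate 3 from the mean of Ctrl replicates 1 and 2 (horizontal axis) and of Confine replicate 3 from Confine replicate 2 (vertical axis), both on log2 of normalized CPM plus 0.5 and coloured by role; the cross is the median of all genes tested. Most members sit in the lower left, with both differences below 0, while the cross sits at 0.005 and 0.011.

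In the wider list of 163 other genes of the pathway, 120 were tested, 18 rose and 9 fell by edgeR's adjusted p, or 15% and 7.5%, near the 12.8% and 10.2% of all genes tested, and the median log2 fold change was 0.08. Ccl5, a chemokine that interferon and NF-κB both induce, had 14.4, 24.6 and 13.2 normalized CPM in Ctrl and 356 and 287 in Confine, a log2 fold change of 4.21 (standard error 0.25, edgeR adjusted p = 7.18e-10). Isg20, an exonuclease that degrades RNA, had 44.8, 37.8 and 37.0 normalized CPM in Ctrl and 196 and 210 in Confine, a log2 fold change of 2.35 (edgeR adjusted p = 2.94e-08). Ccl5 and Isg20 rose in libraries in which Isg15, Ifit1 and Oas1a did not pass the test. Of the 52 other interferon-stimulated genes tested, 5 rose and 3 fell. That is 9.62% and 5.77%, against 12.8% and 10.2% of all genes. Beside Ccl5 and Isg20, those that rose included Ifitm1 (0.78) and Ifitm2 (0.60). Those that fell were Slfn9 (-1.58), Ifit3b (-1.10) and Nmi, the partner of Ifi35 (-1.07). Of the 6 other interferon-induced GTPases tested, 0 passed edgeR's test, against 23% of all genes, and 0 had an unadjusted p under 0.05. The adjusted p of Nmi was 0.086 without Confine replicate 3, and that of Slfn9 was at most 0.00808 when 1 library was left out.

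**Figure D4:**
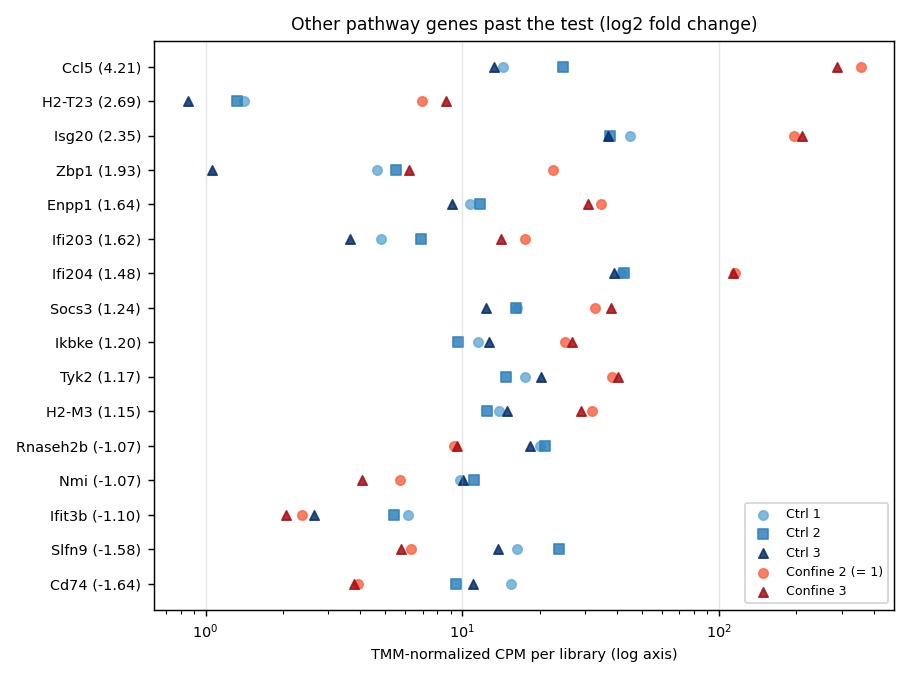
TMM-normalized CPM in each library, on a log axis, of 16 other pathway genes with an edgeR adjusted p under 0.05 and a log2 fold change above 1 in size (in parentheses). Ccl5, H2-T23 and Isg20 lead the 11 genes plotted that were higher in Confine, and the 5 that were lower run from Rnaseh2b to Cd74.

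Per length of exon, the members spanned a wide range of levels in Ctrl. B2m led with 2073 normalized CPM per kb, followed by H2-D1 (259), Bst2 (115), H2-K1 (105) and Isg15 (51.6), and Rsad2 was last with 0.0200. In Confine the level per kb was 3466 for B2m, 323 for H2-D1, 205 for H2-K1, 125 for Bst2 and 42.5 for Isg15, so H2-K1 stood above Bst2 there. The spread over libraries given above separates B2m from H2-D1, but not Bst2 from H2-K1 in Ctrl.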

How the data were processed

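The authors deposited raw counts per gene in 6 columns, without normalization. Per the submitters' processing notes, reads were trimmed with Trim Galore 0.6.10, aligned to mm10 with HISAT2 2.1.0, handled with SAMtools 1.5 and counted with featureCounts; the annotation and the strand setting are not given in the sources used here, although the library protocol keeps the strand. Of 55335 gene identifiers, 55154 matched GENCODE M21 (GRCm38) without their version, which gave symbols, positions and exon lengths. The identical Confine columns entered once. Genes kept by edgeR's filterByExpr (15881) were scaled by TMM and tested with edgeR 4.0.16 (R 4.3.3) in the quasi-likelihood test, without covariates, with Benjamini-Hochberg adjustment over all genes tested. A gene rose or fell at an adjusted p under 0.05, and standard errors were derived from the log2 fold change and its F statistic. A level per kb divides normalized CPM by the summed exon length. Transcripts sharing at least 100 bases at 95% identity were sought with blastn 2.17.0. RefSeq promoters (GRCm38.p6) were searched for motifs by script. The fit was tested on simulated data.

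The members and lists were chosen with earlier results of these data known. Every member is accounted for, with its value in each library where it passed the test or is a sensor, receptor, STAT, IRF or class I presentation gene. Of the wider pathway list, genes with an adjusted p under 0.05 and a log2 fold change above 1 in size were named, with Sting1, the constitutive proteasome subunits and the interferons, and of the markers Ptprc, Cd68, Lyz2, Col1a1, Vim and those that passed. Psmb10, Tapbp, Tapbpl, Erap1, H2-T24, Nlrc5, Jak1, the other interferon receptor chains, H2-DMa, the class II chains, Samhd1, Rnaseh2a and the markers Thy1, Lum and Cd3e, and library values of other effectors and regulators, were added after the values were seen. Alternatives tried were other normalizations and filters, DESeq2 1.42.0, limma-voom (limma 3.58.1), other cutoffs and glmTreat, which tests against the fold change cutoff. The replicate block, the identical columns counted separately and the omission of 1 library at a time were also tried. No column of per-sample values was left unused. Some genes that the lists and counts include are not reported here.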

Additional observations from a re-analysis of the deposited data

How the results depend on the processing

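The 6 calls among the members rested on few libraries. Apart from glmTreat, which called 0 members higher and 0 lower, Ifit2 alone passed in every fit. Over 532 values of members under the alternatives, 450 kept their direction and their side of the threshold, 14 lost the call, 20 gained it and 48 changed sign. The causes were not tested. The fit had 3 residual degrees of freedom, and Mx2, with 14 to 61 counts per library, had the widest standard error. A fit without 1 Confine library assumes that the lone one varies like the Ctrl libraries. Scaling the level ratios per kb was not run, since it moves all libraries alike.

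The members that were higher numbered 4 and those that were lower 2. Library size alone, which moved the median log2 fold change of all genes to -0.21, gave 2 and 4 in place of these, and gave 20 lower genes in the other pathway list in place of 9. Leaving out 1 library gave 0 to 5 higher and 1 to 6 lower members (0 and 3 without Confine replicate 2), and 11 to 22 higher and 4 to 12 lower other pathway genes. At the fold change cutoff the counts were 4 and 2 with no cutoff, 1 and 1 at a log2 fold change above 1, and 0 to 0 higher and 0 to 2 lower when 1 library was left out. With the identical columns as separate samples, 14 other pathway genes were lower.

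With the replicate block, the identical columns taken as replicate 1 gave 8 higher and 5 lower members and 29 higher and 16 lower other pathway genes, and taken as replicate 2 gave 1 lower member and 5 lower other pathway genes. The difference between 2 Ctrl libraries was set against that between the same-numbered Confine libraries, over 15881 genes. With the identical columns as replicate 2, replicate 2 minus replicate 3 had a Pearson correlation of -0.053 between the groups. With them as replicate 1, replicate 1 minus replicate 3 had one of 0.052. These correlations cover all genes, whereas replicate 3 was low in both groups in 81.6% of the members. With the columns as replicate 2, the block lowered the edgeR adjusted p of Psmb8 to 3.25e-05 and of H2-K1 to 1.79e-04. It raised that of B2m to 0.0396 and of Ifit2 to 1.44e-04, and Cgas and Ifnar2 lost their calls. With fewer than 3 pairs the numbers were not treated as pairing.

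Log2 fold changes changed sign with library size alone for Oas1a (-0.188), Oasl2 (-0.129), Bst2 (-0.090), Parp14 (-0.145), Xaf1 (-0.209) and Sting1 (-0.105). For Xaf1 they also did with DESeq2 size factors (-0.005), no filter (-0.004) and DESeq2 (-0.003), and for Oasl2 with limma-voom (-0.062). With the replicate block and the columns as replicate 1 they did for Ifih1 (0.098), Irf9 (0.055), Irf1 (0.052), Isg15 (0.114) and Sting1 (-0.150), and as replicate 2 for Dhx58 (0.010) and Irf9 (0.053). With the identical columns separate they did for Dhx58 (0.044), Irf9 (0.082) and Rtp4 (0.006). Ranges that crossed 0 when 1 library was left out were Ifih1 -0.427 to 0.084, Dhx58 -0.643 to 0.305, Irf3 -0.358 to 0.052, Irf9 -0.439 to 0.302, Irf1 -0.215 to 0.047, Irf7 -0.202 to 0.861, Ifit1 -0.392 to 0.133, Isg15 -0.873 to 0.135, Oas1a -0.295 to 0.312, Oasl2 -1.119 to 0.718, Bst2 -0.181 to 0.434, Usp18 -0.984 to 0.233, Parp9 -0.002 to 0.562, Parp14 -0.065 to 0.167, Rtp4 -0.946 to 0.332, Xaf1 -0.473 to 0.443, H2-D1 -0.031 to 0.622, Sting1 -0.149 to 0.263.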
